A study of Homo sapiens with 4 samples.

Results

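Aminoacyl-tRNA synthetases are the enzymes that join each amino acid to its tRNA, and their 35 genes in the human genome are described here as they are spliced in chromatin-bound RNA. The members were chosen by gene name, the symbols of the nuclear synthetase genes, a rule that uses no measured value. All 35 were found in the annotation, 19 for cytosolic enzymes and 16 for mitochondrial ones, and 33 of them had enough spliced reads to be tested among 10828 genes. The reads came from 4 libraries of K562, a human erythroleukemia line, 2 of the genotype SF3B1 K700E and 2 of the genotype wild type. SF3B1 belongs to the U2 snRNP and grips the branch point while a 3′ splice site is chosen, and K700E is its most frequent substitution in myeloid neoplasms. Per the treatment text shared by all samples, a modified allele was induced with doxycycline at 1 µg/ml and cells were collected on day 4. For wild-type cells the labels leave unsaid if an inducible allele was present and if doxycycline was given. Chromatin was prepared in buffers with 25 µM α-amanitin, and its RNA was depleted of polyadenylated RNA 3 times and then of ribosomal RNA. The labels call the cells epithelial.

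The deposited files count reads across splice junctions, so every value below is about spliced RNA on chromatin; unspliced RNA was not analysed here. Uniquely mapped junction reads numbered 4304213 and 5322414 in SF3B1 K700E, and 3582592 and 3687513 in wild type. The synthetase genes took 53923 and 62536 annotated-junction reads in SF3B1 K700E, and 36629 and 40050 in wild type. The labels do not say that replicates were separate cultures, so p-values cover only the spread of these libraries, which could be technical. SF3B1 itself had 774 ± 101 CPM (counts of annotated-junction reads per 1e6 of the TMM-scaled library total) in SF3B1 K700E and 956 ± 84.3 CPM in wild type (mean ± SD, n = 2 each), and junction counts cannot show the allele. All 12 erythroid markers had reads, although HBG2 had at most 1 read in a library. Their summed level was 1457 to 2182 CPM in SF3B1 K700E and 1661 to 2117 CPM in wild type, and most of each sum came from TFRC. Of 10 epithelial markers 7 had reads, with sums of 350 to 444 CPM in SF3B1 K700E and 374 to 486 CPM in wild type, and KRT5, CDH1 and ESRP1 had none. Of 6 myeloid markers 4 had reads, with sums of 46.7 to 73.2 CPM in SF3B1 K700E and 81.8 to 134 CPM in wild type. Of 4 lymphoid markers 3 had reads, with sums of 1532 to 1768 CPM in SF3B1 K700E and 901 to 1203 CPM in wild type, nearly all from PTPRC. The genotypes did not overlap on these 2 sums, and their part in the results was not tested.

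Cytosolic synthetases supply the ribosomes that translate nuclear mRNA, and the mitochondrial set, whose symbols end in 2, supplies the ribosomes inside mitochondria. GARS1 and KARS1 each encode both forms. Several cytosolic enzymes sit in the multi-synthetase complex, and many cytosolic synthetase genes are targets of ATF4, the transcription factor of the amino acid response. In cells with mutant SF3B1, acceptors (3′ splice sites) a short way upstream of the usual one are the best known change in splicing.

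The sequences that carry the splicing results are given here, 5′ to 3′ on the transcribed strand in GRCh38, read from GENCODE release 29 transcripts. The first is the end of intron 26 of IARS1 (chr9:92245072-92245101, minus strand), the isoleucine enzyme, where the only synthetase junction that passed its test ends. Capitals mark the AG of the upstream acceptor and, at the end, the AG of the annotated one.
IARS1 intron 26 end: ctgattaacagtgtAGctgcttctccatAG
The start of exon 5 of IARS1 (chr9:92286589-92286618, minus strand) is shown because 2 unannotated acceptors lie inside it, and capitals mark their AG.
IARS1 exon 5 start: tctactgttAGcAGacttggccgatggatt
The exons below were skipped in a larger share of reads in both SF3B1 K700E libraries than in both wild-type ones, and are in lower case throughout. They are exon 21 of IARS1 (chr9:92253362-92253453, minus strand), exon 8 of HARS1 (chr5:140677327-140677420, minus strand) and exon 13 of LARS1 (chr5:146153174-146153227, minus strand), and were chosen after their values were seen.
IARS1 exon 21: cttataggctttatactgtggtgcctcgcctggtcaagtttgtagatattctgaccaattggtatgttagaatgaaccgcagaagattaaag
HARS1 exon 8: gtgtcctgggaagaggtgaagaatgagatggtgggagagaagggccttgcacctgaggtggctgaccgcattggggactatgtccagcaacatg
LARS1 exon 13: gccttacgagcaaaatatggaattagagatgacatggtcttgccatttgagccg

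The upstream acceptor of IARS1 intron 26 took a larger share of reads in SF3B1 K700E. It lies 14 nt before the annotated acceptor, and its junction runs from 92247376 to 92245086 on chromosome 9. Of the reads that left this donor, 50 of 407 and 39 of 364 took it in SF3B1 K700E, against 1 of 275 and 5 of 302 in wild type. Both SF3B1 K700E libraries were above both wild-type libraries, and the junction had reads in all 4. The share was 11.5% ± 1.11 in SF3B1 K700E and 1.01% ± 0.914 in wild type (mean ± SD, n = 2 each), and each library's 95% Wilson interval ran from 9.44% to 15.8% and from 7.94% to 14.3% in SF3B1 K700E, and from 0.0642% to 2.03% and from 0.709% to 3.82% in wild type. Relative to the other junctions of that donor, the log2 change was 3.43 (edgeR diffSpliceDGE, adjusted p = 0.00683). The call was lost with limma's voom (adjusted p = 0.129), when SF3B1 K700E replicate 1 was left out (adjusted p = 0.249), when SF3B1 K700E replicate 2 was (0.0743) and when wild-type replicate 1 was (0.126), while the log2 change lay between 2.78 and 4.86 in these and the other alternatives. Read into the main coding sequence, the 14 nt leave the first 930 of 1262 residues as they are, and a stop codon follows after 4 other residues, at codon 935.

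Among synthetase genes, that junction was the only one called of 157 tested for acceptor use, in 70 clusters of junctions that share a donor and 26 genes. Over all genes, 0.137% of 23366 junctions were called, and 0.133% were called higher in SF3B1 K700E. At an unadjusted p under 0.05 there were 6 synthetase junctions, against 3.17% of all junctions. For donor use, in clusters that share an acceptor, none of 168 synthetase junctions in 79 clusters and 24 genes was called by edgeR, 9 had an unadjusted p under 0.05, and limma's voom called none. The background for donor use was 0.0087% of 22976 junctions called, 0.00435% called higher, and 2.18% at an unadjusted p under 0.05.

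VARS2, the mitochondrial valine enzyme, held the other upstream acceptor that could be tested, 10 nt before the annotated acceptor of intron 7 on chromosome 6 (30916960 to 30917094). It took 4 of 18 and 10 of 46 reads in SF3B1 K700E, against 0 of 37 and 0 of 19 in wild type. The wild-type libraries had no read at this site, and 0 of 56 reads allows a share of up to 5.36%. The pooled share in SF3B1 K700E was 4.08 times that limit, which was taken as 3 counts over the group. The junction did not pass (edgeR adjusted p = 0.431). In VARS2, 7.02% of junction reads were multiply mapped, and 1755 more reads fell on introns it shares with an overlapping gene and were left out.

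**Figure D1:**
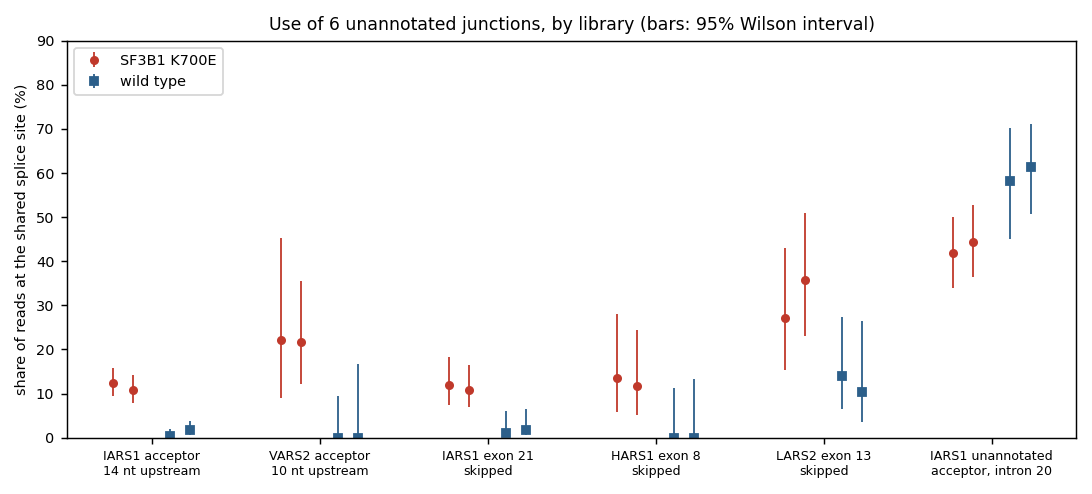
Share of reads (%) taken by 6 unannotated junctions among reads at the same donor or acceptor, in the 2 SF3B1 K700E libraries (red circles) and the 2 wild-type libraries (blue squares), with bars for 95% Wilson intervals. The IARS1 acceptor 14 nt upstream was at 12.3% and 10.7% in SF3B1 K700E and 0.364% and 1.66% in wild type, and the IARS1 acceptor in intron 20 was lower in SF3B1 K700E.

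Counting every unannotated acceptor 10 to 30 nt upstream of an annotated one, with any number of reads, the synthetase genes had 24 sites in 15 genes. Together these had 139 reads in SF3B1 K700E and 20 reads in wild type, or 50 reads in SF3B1 K700E and 14 in wild type without the IARS1 junction. The share was higher in SF3B1 K700E at 18 of the 24 sites, where 73.9% of 3614 such sites in all genes were higher. Reads came from SF3B1 K700E alone at 14 sites (63.9% in all genes) and from wild type alone at 3 sites (17.9% in all genes), and the SF3B1 K700E libraries were deeper. The synthetase sites therefore stood near the background of all genes on these counts.

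As a share of the reads at those sites and their annotated acceptors, upstream acceptors took 1.93% and 1.70% of synthetase reads in SF3B1 K700E, against 0.207% and 0.577% in wild type. All other genes gave 2.46% and 1.98% in SF3B1 K700E, and 0.817% and 0.939% in wild type. The difference for the synthetase genes was 1.42 percentage points (exact permutation p = 0.333, 2-sided, the smallest that 2 against 2 libraries allow). Without IARS1 it was 0.451 percentage points, from 0.722% and 0.933% in SF3B1 K700E and 0.221% and 0.532% in wild type, and the groups still did not overlap. LARS1, the leucine enzyme, had the most SF3B1 K700E reads among the untested sites, 2 and 4, and none in wild type, at an acceptor 21 nt upstream in intron 19.

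Other IARS1 junctions, named after their values were seen, had an unadjusted p under 0.05 and did not pass. In exon 5, the acceptor 11 nt inside the exon took 11 of 558 and 11 of 660 reads in SF3B1 K700E, against 0 of 308 and 2 of 377 in wild type (edgeR adjusted p = 0.889). The skipping of exon 21, of 92 nt, had 16 and 18 reads in SF3B1 K700E and 1 and 2 reads in wild type. Set against the mean of the 2 flanking introns, that skipping was 14.8% ± 0.0916 in SF3B1 K700E and 2.31% ± 0.769 in wild type (mean ± SD, n = 2 each). Both SF3B1 K700E libraries were higher, yet neither end of the junction passed (edgeR adjusted p = 0.587 for the acceptor and 1 for the donor). Loss of exon 21 keeps 712 residues and reaches a stop codon at codon 714.

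Inside intron 20 of IARS1 the direction was the other way. An unannotated acceptor there (92255605) took 59 of 141 and 60 of 135 reads from its donor in SF3B1 K700E, against 32 of 55 and 51 of 83 in wild type, or 43.1% ± 1.84 in SF3B1 K700E and 59.8% ± 2.31 in wild type (mean ± SD, n = 2 each). An unannotated donor 70 nt further on (92255534) took 6 of 72 and 4 of 61 reads into exon 21 in SF3B1 K700E, against 7 of 29 and 8 of 38 in wild type. Both SF3B1 K700E libraries lay below both wild-type libraries at each site. The annotated junction of intron 20 took 92.6% ± 1.26 of reads into exon 21 in SF3B1 K700E and 77.4% ± 2.18 in wild type. None of these passed (edgeR adjusted p = 1). Together the 2 sites could bound an unannotated exon of 70 nt, entered by 119 reads and left by 10 reads in SF3B1 K700E, and entered by 83 reads and left by 15 reads in wild type. Most reads that entered were thus not matched by reads that left, and junction counts do not show if the same molecules used both sites.

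IARS1 held 33.8% of all unannotated synthetase reads in SF3B1 K700E and 31.0% in wild type. The most-read unannotated junction of any synthetase gene was its junction from 92257803 to 92256801, with 89 and 93 reads in SF3B1 K700E and 40 and 62 reads in wild type, which leaves a 183 nt unannotated exon in intron 19. That exon was entered by only 21 reads and left by 182 reads in SF3B1 K700E, and entered by 14 reads and left by 102 reads in wild type, so no inclusion level is given. Inclusion of a 74 nt exon in intron 28, entered by 86 reads and left by 43 reads in SF3B1 K700E and by 56 and 28 reads in wild type, was 8.95% ± 1.86 in SF3B1 K700E and 8.98% ± 2.42 in wild type. The search for such exons was added after the data were seen, and junction counts do not show if the same molecules used both ends. In the annotated junctions, reads were most abundant at intron 13, with 174 and 151 CPM in SF3B1 K700E and 151 and 173 CPM in wild type, and least abundant at intron 20, with 16.6 and 11.9 CPM in SF3B1 K700E and 6.72 and 9.02 CPM in wild type. At intron 1, the main first exon took 65.4% ± 2.40 of reads into exon 2 in SF3B1 K700E and 53.4% ± 4.76 in wild type, which did not pass (edgeR adjusted p = 1).

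**Figure D2:**
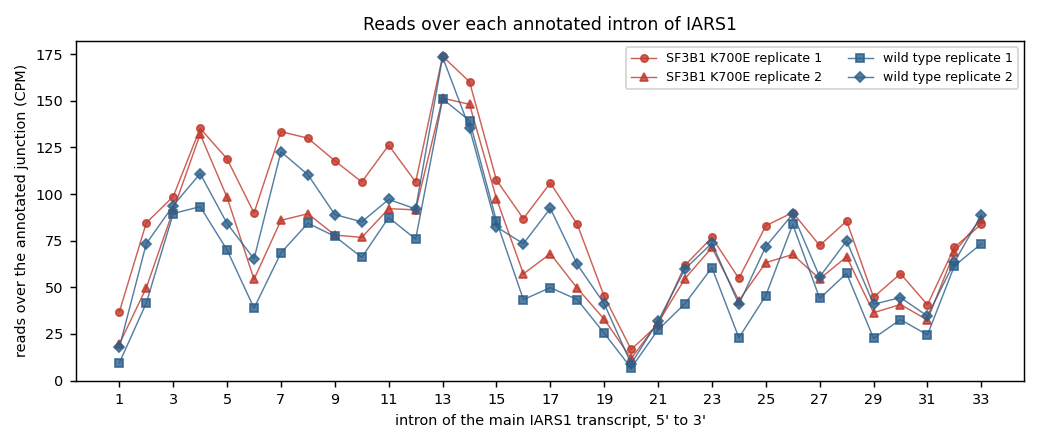
Reads over each of the 33 annotated introns of the main IARS1 transcript (CPM, annotated junction only), in order along the gene, for the 2 SF3B1 K700E libraries (red) and the 2 wild-type libraries (blue). All 4 libraries peak at intron 13 and have their lowest value at intron 20, and SF3B1 K700E replicate 1 lies highest over most introns.

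Skipping of exons was seen in most synthetase genes, and no skipping junction passed. Junctions that skip exons of the main transcript and had a uniquely mapped read numbered 192 in 32 genes, 155 of them unannotated. They took 0.824% and 0.879% of synthetase junction reads in SF3B1 K700E, against 0.766% and 0.688% in wild type (difference 0.125 percentage points, exact permutation p = 0.333). Of 30 single-exon skips with at least 10 reads, 9 were higher in both SF3B1 K700E libraries and 3 lower in both, where 25.2% and 12.1% of 3754 such skips in all genes were. The read minimum over all libraries favours skips that are frequent in the deeper SF3B1 K700E libraries.

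In HARS1, the cytosolic histidine enzyme, the 94 nt exon 8 was skipped in 5 and 5 reads in SF3B1 K700E and in none in wild type. At the shared acceptor this was 5 of 37 and 5 of 43 reads in SF3B1 K700E, against 0 of 30 and 0 of 25 in wild type, or 12.6% ± 1.33 in SF3B1 K700E and 0% in wild type (edgeR adjusted p = 1). The annotated intron 8 junction took the rest, 87.4% in SF3B1 K700E and 100% in wild type. LARS2, the mitochondrial leucine enzyme, skipped exon 13, of 284 nt, in 10 of 37 and 15 of 42 reads in SF3B1 K700E, against 6 of 43 and 3 of 29 in wild type, and its annotated intron 12 took 68.6% ± 6.14 in SF3B1 K700E and 87.9% ± 2.55 in wild type. The libraries of the genotypes did not overlap for either gene, and no junction of them passed.

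In LARS1 the skipping of exon 13, whose 54 nt keep the reading frame, had 18 and 12 reads in SF3B1 K700E and 5 and 2 reads in wild type. The other exons skipped more in both SF3B1 K700E libraries were exon 9 of NARS1, exon 3 of FARS2, exons 2 and 7 of YARS1 and exon 2 of SARS1. Those skipped less in both were exon 9 of QARS1, exon 3 of IARS1 and exon 8 of TARS2. At intron 20 of LARS1, an unannotated donor took 0 of 45 and 4 of 45 reads in SF3B1 K700E, against 7 of 23 and 5 of 33 in wild type, and the annotated donor took 83.3% ± 1.57 in SF3B1 K700E and 57.2% ± 13.3 in wild type (edgeR adjusted p = 1). The exon most often skipped by read count was exon 15 of AARS1, an annotated event, at 24.8% and 27.1% in SF3B1 K700E and 34.2% and 26.1% in wild type, where the genotypes overlapped.

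**Figure D3:**
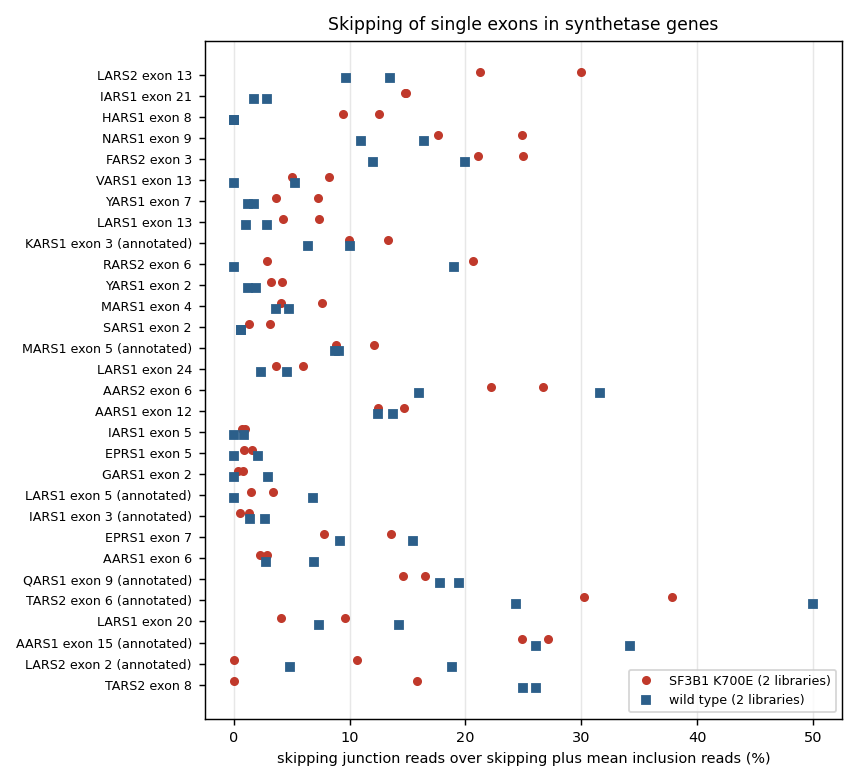
Skipping (%) of 30 single exons with at least 10 skipping reads, as skipping reads over skipping plus mean flanking-intron reads, in the 2 SF3B1 K700E libraries (red circles) and the 2 wild-type libraries (blue squares). Rows are sorted by the difference of the means, with LARS2 exon 13 and IARS1 exon 21 at the top; 9 exons were higher and 3 lower in both SF3B1 K700E libraries.

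The share of junction reads on unannotated junctions was 2.36% and 2.14% in SF3B1 K700E and 1.87% and 1.96% in wild type for the synthetase genes, with no overlap of the genotypes. All other genes had 3.38% and 3.08% in SF3B1 K700E, and 2.89% and 2.91% in wild type. The synthetase difference was 0.343 percentage points (exact permutation p = 0.333). By gene, 11 of 33 had a higher share in both SF3B1 K700E libraries and 2 a lower one, against 22.9% and 9.3% of 10776 genes. CARS2, the mitochondrial cysteine enzyme and chosen after its values were seen, had 5.47% and 6.41% in SF3B1 K700E and 2.17% and 2.31% in wild type.

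No synthetase gene passed the test of spliced reads. Of the 33 tested, edgeR called 0 and DESeq2 called 0, against 0.933% of all 10828 genes by edgeR, of which 0.332% were higher and 0.6% lower. An unadjusted p below 0.05 was reached by 4, WARS2, EPRS1, NARS1 and AARS1, each higher in SF3B1 K700E. Over all genes 3.68% reached that level as higher and 6.44% as lower. The log2 change was positive for 21 and negative for 12 genes, where 50.4% of all genes were positive, with a median of 0.09 against 0.00 for all genes. Both SF3B1 K700E libraries were above both wild-type ones for 10 genes and below for 4, against 19.4% and 20.1% of all genes. In these bulk libraries, a change in the number of cells with a transcript and one in RNA per cell cannot be told apart.

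The cytosolic enzymes had a median log2 change of 0.14, with 14 of 19 positive. EPRS1, which carries the glutamate and proline enzymes in 1 chain (chromosome 1, 219968601 to 220046658), had 893 and 1006 CPM in SF3B1 K700E and 553 and 709 CPM in wild type (log2 0.59, standard error 0.23, edgeR adjusted p = 0.375). NARS1, the asparagine enzyme, had 390 and 418 CPM in SF3B1 K700E and 281 and 296 CPM in wild type. AARS1, the alanine enzyme, had 1668 and 1698 CPM in SF3B1 K700E and 1223 and 1208 CPM in wild type (log2 0.47, standard error 0.21, edgeR adjusted p = 0.479). In these genes the genotypes did not overlap. The same held for SARS1, the serine enzyme, with 519 and 479 CPM in SF3B1 K700E and 393 and 370 CPM in wild type, and for RARS1, the arginine enzyme, with 110 and 106 CPM in SF3B1 K700E and 79.5 and 87.2 CPM in wild type.

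Values went the other way for the threonine and cysteine enzymes. TARS1 had 399 and 329 CPM in SF3B1 K700E and 459 and 495 CPM in wild type (log2 -0.39, standard error 0.22, edgeR adjusted p = 0.633). CARS1 had 377 and 389 CPM in SF3B1 K700E and 486 and 466 CPM in wild type (log2 -0.31). MARS1, the methionine enzyme, was also lower in both SF3B1 K700E libraries. IARS1, the most-read member, had 2965 and 2314 CPM in SF3B1 K700E and 1971 and 2502 CPM in wild type, so the genotypes overlapped, and the remaining cytosolic genes had log2 changes between -0.09 and 0.36.

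**Figure D4:**
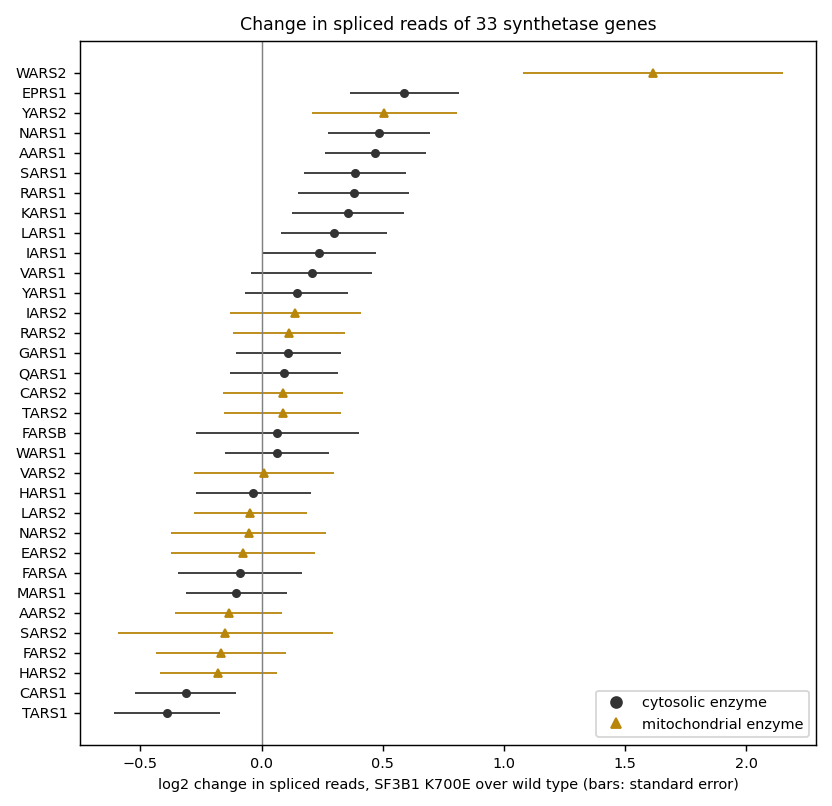
Log2 change in spliced reads of the 33 tested synthetase genes, SF3B1 K700E over wild type, with bars for the standard error of the edgeR fit; circles are cytosolic and triangles mitochondrial enzymes. None passed the test; WARS2 lies farthest to the right at 1.62 and TARS1 farthest to the left at -0.39.

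The 16 mitochondrial genes had 14 tested, 7 with positive and 7 with negative log2 changes and a median of -0.02. MARS2 has a single exon and so no junction, and PARS2, the proline enzyme, has 1 intron and had 1 read in 1 library of each genotype. WARS2, the tryptophan enzyme, had the largest log2 change of any member and few reads, 30 and 27 in SF3B1 K700E and 7 and 7 in wild type, or 6.59 ± 1.38 CPM in SF3B1 K700E and 2.12 ± 0.0246 CPM in wild type (log2 1.62, standard error 0.54, edgeR adjusted p = 0.272). It was named after its values were seen. HARS2 had 64.1 and 61.3 CPM in SF3B1 K700E and 74.3 and 67.6 CPM in wild type, without overlap. FARS2, the phenylalanine enzyme, had 46.4 and 36.0 CPM in SF3B1 K700E and 45.2 and 47.2 CPM in wild type, and AARS2 had 162 and 170 CPM in SF3B1 K700E and 199 and 166 CPM in wild type, both with overlap. In SARS2, 697 reads fell on introns shared with an overlapping gene and were left out of its 25 and 34 reads in SF3B1 K700E and 30 and 19 reads in wild type.

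Within each library, mitochondrial genes took 9.38% and 9.51% of all synthetase spliced reads in SF3B1 K700E, against 11.1% and 10.3% in wild type. The difference was -1.29 percentage points (exact permutation p = 0.333), and without IARS1 it was -1.50. Grouped by role, the 7 genes of the multi-synthetase complex had a median log2 change of 0.30 with 6 positive, and none passed. The 13 ATF4-linked genes had a median of 0.21 with 10 positive, and the 6 other cytosolic genes 0.08 with 4 positive. Among cytosolic enzymes, the class I fold had a median of 0.18 over 10 genes and class II 0.11 over 9 genes. Across the 33 genes, log2 change and log10 gene length had a Pearson's r of 0.15, a description over genes that share libraries.

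Per intron of the main transcript, the mean level of the cytosolic genes ran from 6.41 to 83.1 CPM in SF3B1 K700E and from 5.91 to 67.0 CPM in wild type, with medians of 29.6 CPM in SF3B1 K700E and 21.8 CPM in wild type. The mitochondrial genes with an intron ran up to 8.79 CPM in SF3B1 K700E and 8.70 CPM in wild type, with medians of 5.39 CPM in SF3B1 K700E and 5.65 CPM in wild type. In SF3B1 K700E, 17 of 19 cytosolic genes exceeded every mitochondrial gene per intron, and 16 did in wild type. AARS1 led in SF3B1 K700E at 83.1 CPM per intron with IARS1 at 78.9, and IARS1 led in wild type at 67.0 with AARS1 at 59.9. The libraries of these genes overlapped within each genotype. GARS1 followed at 52.8 CPM per intron in SF3B1 K700E and 48.8 in wild type, then SARS1 at 48.3 in SF3B1 K700E and 36.6 in wild type, and the libraries of this pair did not overlap within either genotype. WARS1, LARS1 and YARS1 came next in SF3B1 K700E, between 39.9 and 42.4 CPM per intron in SF3B1 K700E and between 34.2 and 40.8 in wild type, where WARS1 stood above SARS1, with neighbours overlapping in at least 1 genotype. The lowest cytosolic genes, FARSB and RARS1, lay among the mitochondrial ones. WARS2 was the lowest tested member at 1.22 CPM per intron in SF3B1 K700E and 0.364 in wild type. Unlike the gene totals, these levels include introns shared with an overlapping gene, and the rank of WARS2 is given only with those counted. SARS2 had 3.76 CPM per intron in SF3B1 K700E and 2.98 in wild type. Its gene totals without shared introns were 6.69 CPM in SF3B1 K700E and 7.44 CPM in wild type. They come from only 3 annotated junctions, so they give no level per intron for its 15 introns. GARS1 also holds the only intron of the AT/AC type read in these genes (intron 11, chromosome 7, 30621501 to 30622316), with 190 and 236 reads in SF3B1 K700E and 129 and 169 reads in wild type. Scaled for depth, these were 47.9 and 49.1 CPM in SF3B1 K700E and 39.4 and 50.8 CPM in wild type, which overlapped.

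**Figure D5:**
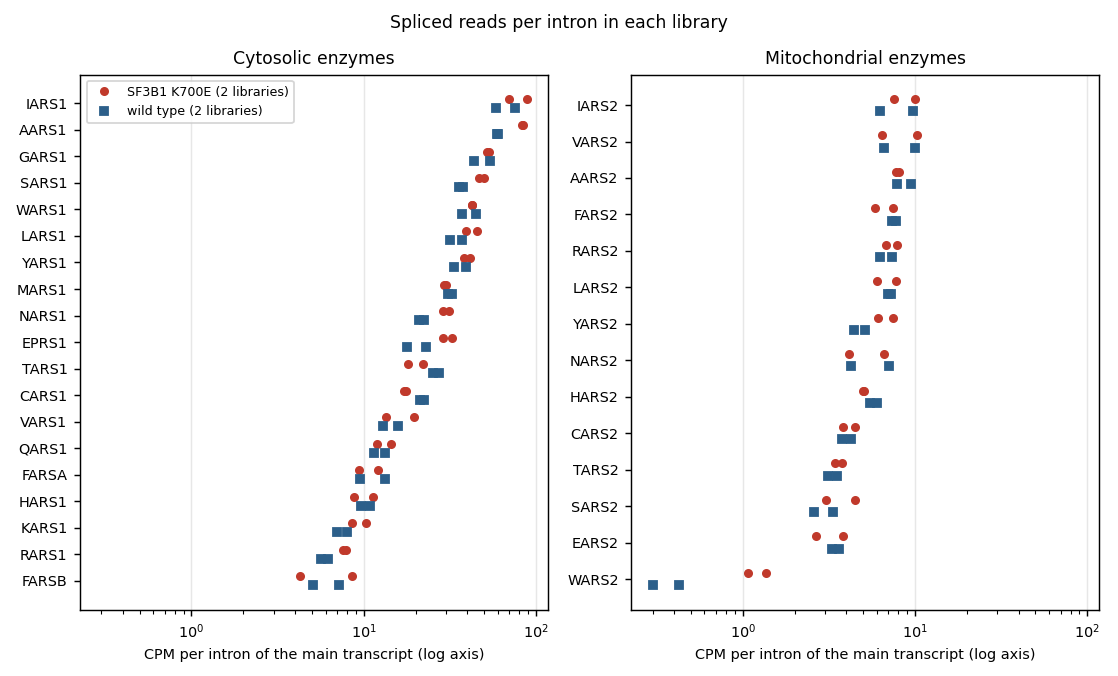
Spliced reads per intron of the main transcript (CPM, log axis) for 19 cytosolic and 14 mitochondrial synthetase genes, each with the 2 SF3B1 K700E libraries (red circles, upper) and the 2 wild-type libraries (blue squares, lower). IARS1 and AARS1 lie highest, and all mitochondrial genes lie near or below 10 CPM per intron. Introns shared with an overlapping gene are included, which matters most for SARS2.

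No gene that works beside the synthetases passed either. Of a list of 26 (complex scaffolds, elongation factors, tRNA export and editing, the GCN2 and ATF4 response), 25 were tested and 0 called by edgeR, with a median log2 change of 0.10. At an unadjusted p under 0.05 there was 1, TARS3, a second cytosolic threonine enzyme gene, with 53.5 and 49.3 CPM in SF3B1 K700E and 26.3 and 37.6 CPM in wild type (edgeR adjusted p = 0.430). ATF4 had 95.1 and 127 CPM in SF3B1 K700E and 108 and 81.5 CPM in wild type, which overlapped. Another of its targets, ASNS, which makes asparagine, had 15 and 19 reads in SF3B1 K700E and 14 and 8 reads in wild type. In CPM, ASNS had 3.78 and 3.95 in SF3B1 K700E and 4.28 and 2.41 in wild type, which overlapped. Of the other listed genes of this response, TRIB3, PSAT1, CHAC1 and SESN2 had negative log2 changes, and DDIT3, EIF2AK4 and GCN1 had positive ones.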

How the data were processed

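The deposited run logs show that the authors aligned read pairs with STAR 2.7.10a to GRCh38.p12, with junctions of GENCODE release 27 and release 22. The deposited junction files hold raw counts of reads across each junction, with no normalization. No strand is stated for the kit, and a junction's strand came from its motif. Junctions were assigned to genes with GENCODE release 29, and reads on introns of more than 1 gene were left out of the gene counts and fits. The levels per intron count every annotated intron of the main transcript, shared with another gene or not.

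Uniquely mapped annotated-junction reads were summed per gene, filtered with filterByExpr, scaled with TMM and tested with the quasi-likelihood fit of edgeR 4.0.16 (R 4.3.3) on genotype alone, with Benjamini-Hochberg adjustment over all genes at 0.05. Junction use was tested with edgeR's diffSpliceDGE over all junctions with a canonical motif and at least 10 reads, in clusters of at least 2. A gene's standard error is its log2 change divided by the root of F. limma 3.58.1 and DESeq2 1.42.0 served as alternatives, and the fits were tested on simulated counts. There the junction fits missed more changes than they recovered, so a junction that did not pass is not shown to be unchanged. Alternatives covered other scaling, filters, multiply mapped reads, replicate blocks and each library left out. Wilson intervals (95%) and floors of 3 counts describe counting error alone, because the reads have no molecular identifiers.

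Members and lists were chosen with earlier results of these data known. Named were members that passed, the 5 largest rises and falls above the median level of all genes, called junctions, tested upstream acceptors, the 10 largest differences in share among clusters with at least 20 reads in each library, and the most-read unannotated junction. Other names were chosen after their values were seen: WARS2, the level of IARS1, CARS2, MARS1, SARS2, VARS2 levels, the skipped exons, the unannotated exons, the exon 5 acceptors, LARS1 intron 19 and the AT/AC intron. The value of 1 marker gene is not reported here.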

Additional observations from a re-analysis of the deposited data

How the results depend on the processing

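With 2 libraries per genotype, a fit with 1 left out assumes that the lone library varies like the others. Same-numbered libraries deviated with a correlation of -0.206 over genes. That rests on a single difference per genotype, so it cannot settle if the replicate numbers pair the samples. The crossed pairing, added after seeing the data, called 127 genes higher and 307 lower. With the replicate block 51 genes were called higher and 86 lower, and 19 junctions higher and 0 lower for acceptor use, where 459 and 107 had an unadjusted p under 0.05, and 0 for donor use, where 248 and 90 did; crossed, acceptor use gave 35 higher and 1 lower. Without a block 36 genes were called higher and 65 lower, 31 acceptor junctions higher and 1 lower, and 1 donor junction each way. DESeq2 called 63 genes higher and 154 lower. limma's voom called 9 acceptor junctions higher and 6 lower, with 0 in synthetase genes, and at least 20 reads per junction gave 2 lower. Leaving out 1 library gave 0 to 98 genes higher and 0 to 227 lower; without SF3B1 K700E replicate 2 edgeR called 0, while 344 genes higher and 622 lower had an unadjusted p under 0.05. It gave 5 to 11 acceptor junctions higher and 0 to 1 lower, 0 to 1 of them in synthetase genes, and 0 donor junctions in each case. No synthetase gene was called under any of these settings, and their smallest adjusted p was 0.0893, for EPRS1 with the crossed pairing.

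The upstream acceptor share of the synthetase genes differed by 11.4 percentage points with only junctions of at least 10 reads, which leaves IARS1 and VARS2, by 0.815 with a window of 1 to 100 nt, and by 0.451 without IARS1. Over the 4 fits with 1 library left out, the log2 change of FARS2 ran from -0.35 to 0.019, above 0 without SF3B1 K700E replicate 2, and that of AARS2 from -0.24 to 0.00088, above 0 without wild-type replicate 1. The IARS1 junction kept its direction in all 10 alternatives. Of the other named genes and junctions rerun and the library shares, none changed direction; group medians, other skips, unannotated exons and genes named outside the rule, other than WARS2 and IARS1, were not rerun. Read totals limit the low members, WARS2, SARS2 and PARS2 foremost.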
